A study of Homo sapiens with 3 samples.

Results

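Aminoacyl-tRNA synthetases are the enzymes that attach each amino acid to its tRNA, and they were followed here in human embryonic stem cells deprived of leucine or of lysine. The set holds 37 genes: 19 of the cytosolic enzymes, 16 of the mitochondrial ones, and the scaffold proteins AIMP1 and AIMP2. Members were all probe sets whose gene symbol in the platform annotation was exactly a member's, which gave 70 of 54675 probe sets for 33 of the 37 genes, out of 19775 genes named on the array. Of the 33, 17 are cytosolic (34 probe sets), 15 mitochondrial (33) and 1, AIMP1, a scaffold (3). MARS1, QARS1 and TARS2 are read only by probe sets that also name a microRNA gene and were given no value, and AIMP2 was not analysed here. AIMP2 ends in 2 like the mitochondrial symbols, but it encodes a cytosolic scaffold and was counted as one.

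The cells were khES3, a long-established line of human embryonic stem cells, harvested while undifferentiated. The 3 groups were cells in complete medium, in medium lacking leucine and in medium lacking lysine, each for 5 hours. Each group had 1 Affymetrix array, so no value below has a replicate check and no p-value was computed. All groups share the same line, and the labels do not say how many cultures an array stands for.

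In human cells the synthetases fall into a cytosolic and a mitochondrial set, which are mostly products of separate nuclear genes; GARS1 and KARS1 supply both compartments. When an amino acid runs short, uncharged tRNA activates the kinase GCN2, which slows general translation while the transcription factor ATF4 is made in larger amounts. ATF4 binds, with C/EBP partners, a composite DNA element with the letters TGATGNAA, and several cytosolic synthetase genes are textbook ATF4 targets. Part of the cytosolic enzymes sit in a large multi-synthetase complex held together by AIMP proteins. LARS1, the leucyl enzyme, has also been described as a leucine sensor for mTORC1.

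The promoters of the cytosolic genes were searched for that element, and the matches are shown to set the cytosolic promoters beside the mitochondrial ones. TGATGNAA, on either strand, was looked for in windows of 300 bases, from 250 before to 50 after each annotated start, in the RefSeq promoter table of GRCh38.p14. Of 16 cytosolic genes with an entry 7 held it (AARS1, CARS1, GARS1, IARS1, MARS1, NARS1 and TARS1), of 14 mitochondrial genes 1 (YARS2), and of the AIMP genes 0 of 2, against 3.62% of all 35116 windows. TGATGCAA, a narrower form contained in it, was held by 6 of the 16 cytosolic genes, 0 of the 14 mitochondrial genes and 0.866% of all windows. Members are counted by gene, with a match in any of a gene's windows, and the percentages by single window. These units are unlike, and a gene with several windows has more room for a match. Each line below gives 30 bases on the gene's own strand, 5′ to 3′, with the match in capitals, for the matching members that have values; the match reads TGATGNAA on the gene's strand in NARS1 and YARS2 and as its reverse complement in the others.
AARS1: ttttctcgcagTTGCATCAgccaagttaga
CARS1: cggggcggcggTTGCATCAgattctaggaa
GARS1: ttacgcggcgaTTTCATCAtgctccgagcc
IARS1: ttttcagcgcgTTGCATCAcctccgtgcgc
NARS1: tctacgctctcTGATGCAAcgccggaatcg
TARS1: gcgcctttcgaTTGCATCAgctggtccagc
YARS2: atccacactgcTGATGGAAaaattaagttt
These stretches lie at chr16:70289675-70289704 (minus strand, AARS1), chr11:3057407-3057436 (minus, CARS1), chr7:30594834-30594863 (plus, GARS1), chr9:92293692-92293721 (minus, IARS1), chr18:57621804-57621833 (minus, NARS1), chr5:33440956-33440985 (plus, TARS1) and chr12:32756076-32756105 (minus, YARS2). Counted from the annotated start of the window that holds it, the first base of the match is at -187 in AARS1, -33 in GARS1, -13 in IARS1, -2 in CARS1, 3 in TARS1, 15 in NARS1 and -197 in YARS2. CARS1, GARS1 and TARS1 have 2 windows each, and the match is not in both. In GARS1 and TARS1 the gene's outermost start lies further upstream, at 30594735 and 33440696. In 5 of the 6 cytosolic genes shown the match is thus close to an annotated start, and in AARS1 it is well upstream. A match is a description of these letters, not a site of binding.

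The deposited signals had been brought to a common scale, and differences are given in log2 signal, where 1 is a 2-fold and 0.58 a 1.5-fold difference. Signals under the 40th percentile of an array were raised to that floor (54.6 in complete medium, 56.7 without leucine and 62.4 without lysine). A probe set was kept where its mean over the arrays reached the median, and a gene took its brightest kept probe set. Of the 70 member probe sets 58 were kept, and each of the 33 genes had at least 1, above the floor on all 3 arrays. As an error, only the disagreement of a gene's own kept probe sets was at hand. Its SD, pooled over 5982 genes with several, was 0.48 where leucine-deprived was set against complete, 0.56 where lysine-deprived was, and 0.58 between the deprived arrays. Variation from culture to culture is not in it. The signal ratio of the 3′ to the 5′ end of ACTB, a measure of RNA and labelling quality, was 5.44, 7.55 and 11.2 on the complete, leucine-deprived and lysine-deprived arrays, and that of GAPDH 1.08, 1.23 and 1.25; the part of this in the differences below was not tested. All 10 markers of undifferentiated cells on the array, among them SOX2, NANOG and LIN28A, were above the floor on every array, with a summed signal of 228744, 245172 and 240074 in the same order. Of 9 fibroblast and feeder markers 8, 6 and 7 were above the floor, with a summed signal of 29559, 27101 and 30982. Among them THY1, which stem cells also express, differed by -0.61 without leucine and -0.76 without lysine, and COL1A1 by 0.19 and 0.69. Of dim differentiation markers HAND1 differed by 1.08 and 0.89 (signals 63.1, 133 and 117) and TBXT by 0.24 and 1.41 (171, 202 and 454). KRT7 differed by 0.12 and 0.42, EOMES by 0.31 and -1.01, SOX17 by -0.55 and 0.80, and GATA6 by -0.57 and 0.00. The brighter NES differed by -0.02 and -0.15. Above the floor were 3, 4 and 2 of 5 trophoblast markers and 2, 2 and 1 of 3 neural ones. Of 5 mesoderm and endoderm markers 4, 3 and 3 were. The part of these markers in the differences below was not tested. In bulk RNA, fewer cells of a type and less RNA per cell cannot be told apart.

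Cytosolic synthetase signals were higher than in complete medium on both deprived arrays, whereas mitochondrial ones stayed near the level of other genes or below it. After leucine removal the median difference over the 17 cytosolic genes was 0.51, with 16 of 17 above 0, beside a median of 0.02 and 51.7% above 0 over all genes measured. After lysine removal the cytosolic median was 0.47, with 12 of 17 above 0, beside 0.01 and 50.8%. The mitochondrial median was 0.04 after leucine removal (11 of 15 above 0) and -0.17 after lysine removal (5 of 15 above 0). Of the cytosolic genes 6 were at least 1.5-fold higher after leucine removal, where 9.32% of 12298 genes were, and 7 after lysine removal, where 13.5% of 12270 were. None of the 17 was 1.5-fold lower, against 6.09% and 8.82% of genes. All 17 cytosolic genes lay among the brighter genes, those at or above the median level, of which 3.78% and 6.55% were 1.5-fold higher. With each array centred on its median in place of the deposited scaling, the median of all genes shifted to -0.12 after leucine and -0.24 after lysine removal, and the cytosolic medians to 0.38 and 0.14, which is 0.50 and 0.38 above all genes; the mitochondrial medians became -0.09 and -0.41, with 7 and 1 of 15 above 0. With probe sets of a gene averaged, the mitochondrial median after leucine removal was -0.02, with 7 of 15 above 0. Under that centring 13 cytosolic genes lay above 0 after leucine and 11 after lysine removal, and 1 of the 17 passed 1.5-fold after lysine removal. The split of all genes past 1.5-fold also turned, from 1146 higher and 749 lower to 765 and 1172 for leucine, and from 1651 and 1082 to 849 and 2510 for lysine.

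**Figure D1:**
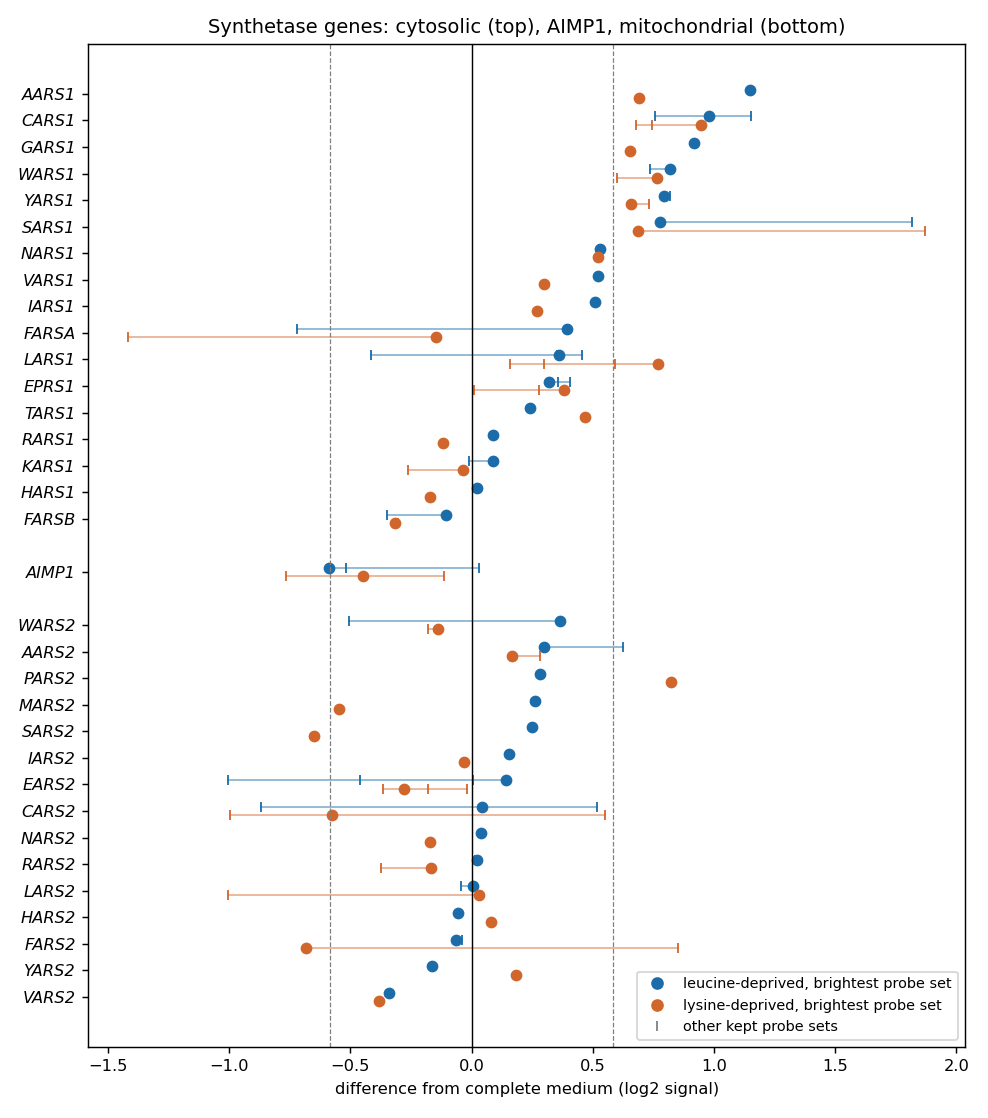
Difference from complete medium in log2 signal for the 33 measured genes, 1 row per gene, with cytosolic synthetases at the top, then AIMP1, then mitochondrial synthetases. Filled points are the brightest kept probe set on the leucine-deprived (blue) and lysine-deprived (orange) array. Small bars are the gene's other kept probe sets joined by a line, and dashed lines mark 1.5-fold. From AARS1 to SARS1 both points lie beyond 1.5-fold. The mitochondrial points scatter around 0 after leucine removal, and 10 of 15 lie below 0 after lysine removal.

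On brightest probe sets AARS1, the alanyl enzyme, differed most after leucine removal among the synthetases measured. Read so, it was the only cytosolic member past 2-fold (2.67% of all genes were 2-fold higher). A dimmer CARS1 probe set (1.15 in log2) and a dimmer SARS1 one (1.82) were past 2-fold too, and neither lay below AARS1 (1.15). Its signal was 2826 in complete medium, 6263 without leucine and 4556 without lysine. The leucine-deprived array was the highest and the lysine-deprived one in between, at 2.22-fold and 1.61-fold of complete medium. AARS1 is read by 1 probe set.

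CARS1, the cysteinyl enzyme, had signals of 8567, 16885 and 16515 on the complete, leucine-deprived and lysine-deprived arrays. Both deprived arrays were nearly alike, at 1.97-fold and 1.93-fold of complete medium. Its other kept probe sets differed by 0.76 and 1.15 after leucine removal and by 0.68 and 0.74 after lysine removal, so all 3 were higher on both arrays. CARS1 holds the printed TGATGCAA match at an annotated start.

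GARS1, whose gene yields both the cytosolic and the mitochondrial glycyl enzyme, had signals of 25520.4, 48211 and 40136 in the same order. It was 1.89-fold higher without leucine and 1.57-fold higher without lysine, on 1 probe set.

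WARS1, the tryptophanyl enzyme, also known as an interferon-induced gene, had signals of 3081, 5427 and 5233 on the complete, leucine-deprived and lysine-deprived arrays. YARS1, the tyrosyl enzyme, had 5576, 9676 and 8800.0. Both genes were thus higher on either deprived array, WARS1 by 0.82 and 0.76 and YARS1 by 0.80 and 0.66 on the log2 scale. Their second probe sets moved alike, WARS1 by 0.74 and 0.60 and YARS1 by 0.82 and 0.73.

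SARS1, the seryl enzyme, had signals of 4206, 7202.5 and 6774 on its brightest probe set, a difference of 0.78 without leucine and 0.69 without lysine. Its second, dimmer probe set read 188, 662 and 688, which is 1.82 and 1.87 higher. Both SARS1 probe sets were higher on both deprived arrays but differed from each other by over 1 on the log2 scale, which is above the SD between probe sets of a gene. The SARS1 and WARS1 windows held no TGATGNAA.

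**Figure D2:**
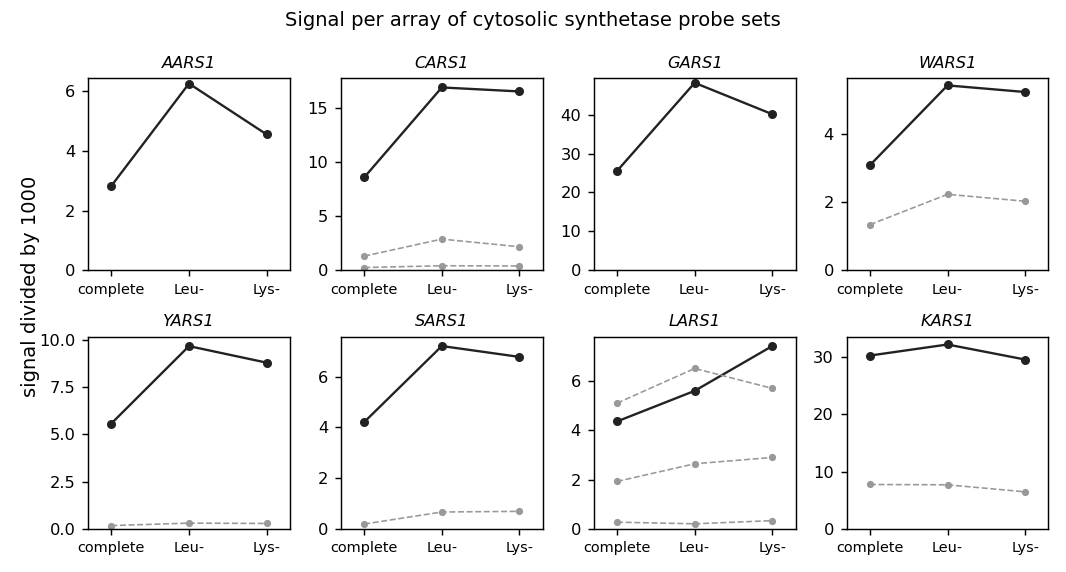
Signal divided by 1000 on the complete, leucine-deprived (Leu-) and lysine-deprived (Lys-) arrays for the 7 cytosolic genes that were at least 1.5-fold higher in either deprivation, and for KARS1. Solid black lines are the brightest kept probe set of a gene and dashed grey lines its other kept probe sets, each axis starting at 0; the first 6 genes are higher on both deprived arrays, the LARS1 probe sets differ in order, and KARS1 is nearly level.

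The next cytosolic genes lay below 1.5-fold. NARS1, the asparaginyl enzyme, had signals of 15444, 22315 and 22166, and differed by 0.53 and 0.52 on the leucine- and lysine-deprived arrays. IARS1 and VARS1, which charge the other branched-chain amino acids isoleucine and valine, were higher by 0.51 and 0.52 without leucine and by 0.27 and 0.30 without lysine. The leucine-deprived signal was thus the highest of the 3 arrays for both: 18879, 26902 and 22747 for IARS1, and 644, 926 and 793 for VARS1. That order was not particular to them. Leucine- over lysine-deprived, 14 of 17 cytosolic genes lay above 0, and FARSA, AARS1 and GARS1 ranked above IARS1 and VARS1. TARS1, the threonyl enzyme, ran the other way, with signals of 14051, 16626.5 and 19447 and differences of 0.24 and 0.47. EPRS1, a single protein that charges both glutamate and proline, differed by 0.32 and 0.38, and its 3 probe sets ranged from 0.32 to 0.41 after leucine and from 0.01 to 0.38 after lysine removal.

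Arginyl, histidyl, lysyl and phenylalanyl enzymes showed little difference on their brightest probe sets. RARS1 differed by 0.09 and -0.12 and HARS1 by 0.02 and -0.17 on the leucine- and lysine-deprived arrays. FARSB, the beta subunit of the phenylalanyl enzyme, differed by -0.11 and -0.31, and its other kept probe set was lower too. FARSA, the alpha subunit, differed by 0.39 and -0.15, but its other probe set by -0.72 and -1.42. No direction can thus be given for FARSA after leucine removal. After lysine removal both probe sets were lower, by unlike amounts. Apart from the second FARSA probe set, these values lay within the SD between probe sets.

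LARS1 and KARS1 charge the amino acids that were removed, and neither was the synthetase that differed most when its own amino acid was missing. LARS1 had signals of 4360.4 in complete medium, 5602 without leucine and 7422 without lysine on its brightest probe set. Read this way it was higher by 0.36 after leucine removal, rank 11 of 17 cytosolic genes, and by 0.77 after lysine removal, rank 2 of 17. The median of the other cytosolic genes was 0.52 and 0.43. A second LARS1 probe set of almost the same brightness read 5103, 6512 and 5702, a difference of 0.35 and 0.16, and put the leucine-deprived array highest. The others differed by 0.46 and 0.59, and, on the dimmest, by -0.41 and 0.30. The order of the deprived arrays for LARS1 therefore turned with the probe set: leucine- over lysine-deprived was -0.41 on the brightest and 0.19 on the next. With arrays centred on their medians the second probe set became the brightest, and LARS1 then differed by 0.22 after leucine and -0.09 after lysine removal. Averaged over its 4 kept probe sets LARS1 differed by 0.19 and 0.45, the latter equal to the cytosolic median of such averages and below 1.5-fold.

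KARS1, the lysyl enzyme, had signals of 30242, 32172 and 29547, and its second probe set 7740.0, 7682 and 6457. The 3 arrays were nearly level on both probe sets. It differed by 0.09 without leucine (rank 15 of 17) and by -0.03 without lysine (rank 13 of 17), with the second probe set at -0.01 and -0.26; with arrays centred on their medians it was -0.04 and -0.28. The median of the other cytosolic genes was 0.52 and 0.50. Leaving LARS1 and KARS1 out, the cytosolic medians were 0.52 after leucine and 0.47 after lysine removal, close to those with them.

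**Figure D3:**
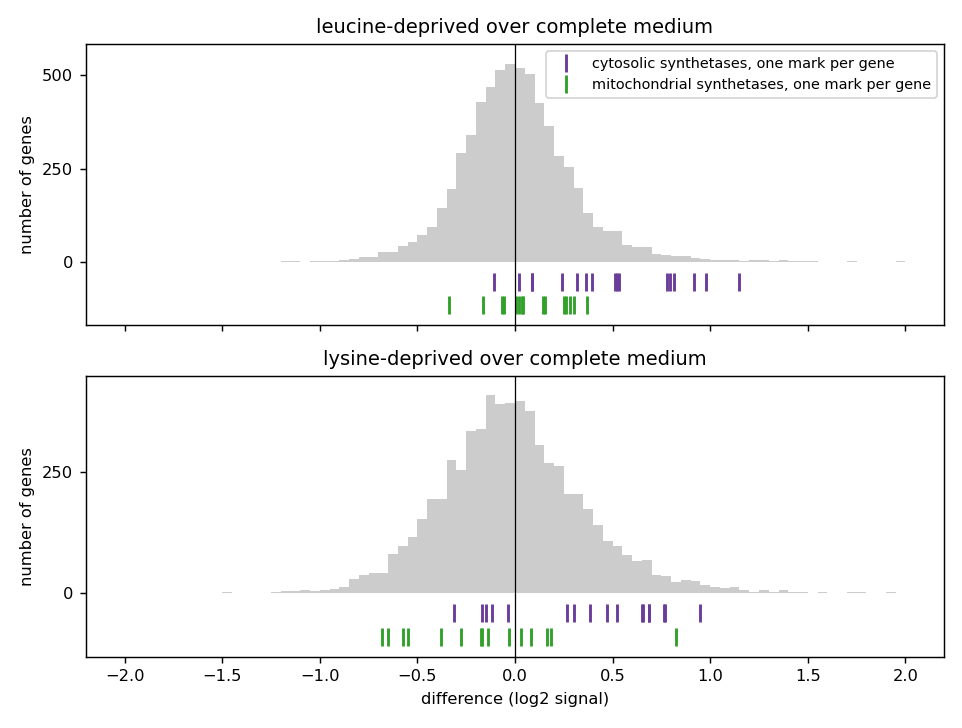
Histogram of the difference from complete medium in log2 signal over the 6477 brighter genes, in steps of 0.05 (values beyond 2 in either direction not drawn), for the leucine-deprived (top) and lysine-deprived (bottom) array. Marks under the bars are the 17 cytosolic (purple) and 15 mitochondrial (green) synthetase genes, 11 of the latter being among the brighter genes; the cytosolic marks reach into the upper tail on both arrays and the mitochondrial marks stay around 0 after leucine removal.

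The cytosolic genes split by what is known of them. Of 13 widely reported as ATF4 targets 12 had values (AARS1, CARS1, EPRS1, GARS1, IARS1, LARS1, NARS1, SARS1, TARS1, VARS1, WARS1 and YARS1), and all 12 lay above 0 on both deprived arrays, with a median of 0.65 after leucine and 0.66 after lysine removal. The remaining 5 with values (FARSA, FARSB, HARS1, KARS1 and RARS1) had a median of 0.09 after leucine removal, 4 of 5 above 0, and of -0.15 after lysine removal, 0 of 5 above 0. Every cytosolic gene past 1.5-fold was among the 12, with 6 after leucine and 7 after lysine removal, where 9.32% and 13.5% of all genes were. Of all genes 51.7% lay above 0 after leucine and 50.8% after lysine removal. Membership in this list comes from general knowledge and was set with earlier results of these arrays known, so it is not independent evidence of direction.

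Split by the promoter search, the 6 measured cytosolic genes with a TGATGNAA match had a median of 0.72 after leucine removal (0.24 to 1.15) and 0.59 after lysine removal (0.27 to 0.95). The 8 whose windows held no match had 0.20 (-0.11 to 0.82) and -0.08 (-0.31 to 0.76). Both groups overlapped: 3 of the 6 matching genes (AARS1, CARS1 and GARS1) and 2 of the 8 others (SARS1 and WARS1) were 1.5-fold higher on each deprived array. Of all genes 9.32% were 1.5-fold higher after leucine and 13.5% after lysine removal, and the share higher on both was not counted. All 6 matching genes are also in the ATF4 list, as are EPRS1, SARS1 and WARS1 among those without a match. LARS1, VARS1 and YARS1 were not in the promoter table.

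**Figure D4:**
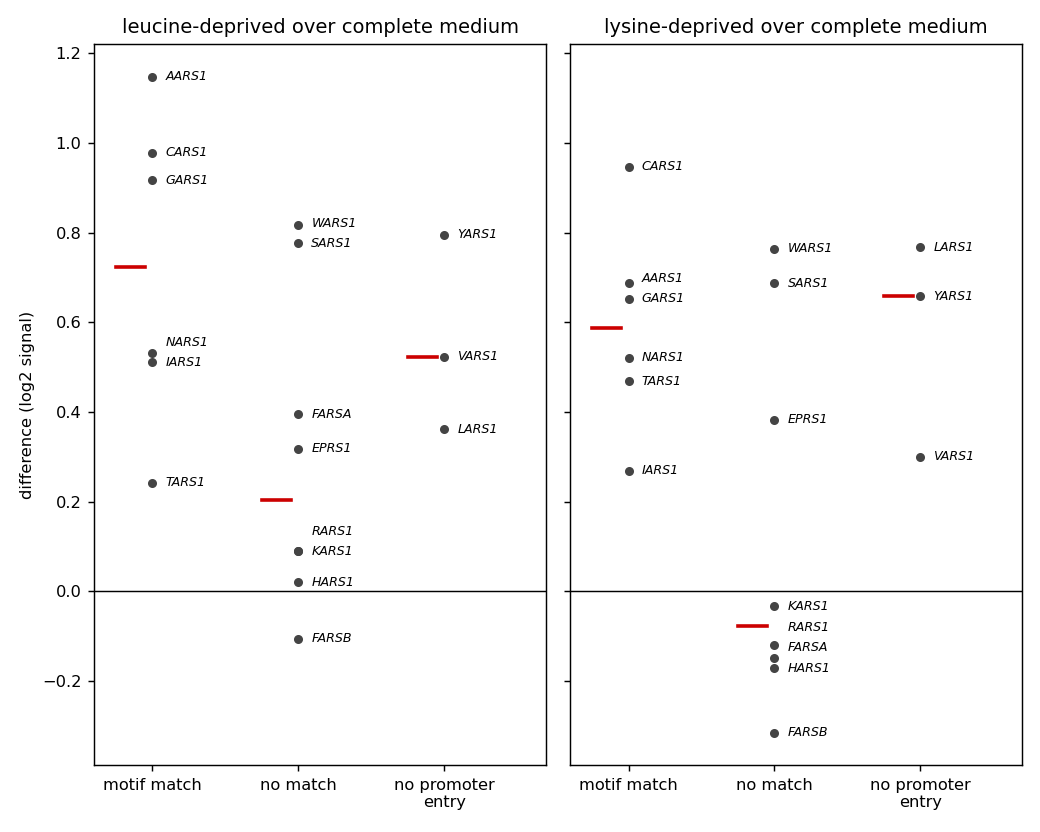
Difference from complete medium in log2 signal of the 17 measured cytosolic synthetase genes, 1 point per gene, grouped by whether their promoter windows held the searched motif (6 genes), did not (8 genes) or had no entry in the table (3 genes); labels are moved up where they would overlap, and red bars are medians. Genes with a match all lie above 0 on both arrays, but SARS1 and WARS1 without a match are as high as several of them.

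The enzymes of the multi-synthetase complex had lower medians than the cytosolic enzymes outside it on both deprived arrays. The 5 measured complex members (EPRS1, IARS1, KARS1, LARS1 and RARS1) had a median of 0.32 after leucine and 0.27 after lysine removal, with 0 and 1 past 1.5-fold. The 12 enzymes outside this complex had 0.65 and 0.59, with 6 past 1.5-fold on each array, where 9.32% and 13.5% of all genes were. AIMP1, a scaffold of the complex that is also the precursor of a secreted cytokine, went the opposite way. Its signal was 4113 in complete medium, 2739 without leucine and 3015 without lysine, so complete medium was highest. It was 1.5-fold lower after leucine removal (-0.59, where 6.09% of all genes were as low) and differed by -0.45 after lysine removal. A second AIMP1 probe set differed by -0.52 and -0.76, and the dimmest by 0.03 and -0.12.

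Enzymes that charge non-essential amino acids had a median of 0.79 after leucine removal (8 genes, 5 of them past 1.5-fold), against 0.36 for those charging essential ones (9 genes, 1 past 1.5-fold). After lysine removal the medians were 0.66, with 5 past 1.5-fold, and 0.27, with 2. Of all genes 9.32% were 1.5-fold higher after leucine and 13.5% after lysine removal. All of the non-essential group but RARS1 are also in the ATF4 list. By catalytic fold, the class I enzymes had medians of 0.52 and 0.66 (7 genes) and the class II enzymes 0.39 and 0.47 (9 genes) after leucine and lysine removal. EPRS1, which holds both folds, was in neither.

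Mitochondrial synthetases were measured by dimmer probe sets, with a median level at percentile 61.7 of genes against 91.7 for the cytosolic ones, and kept probe sets of 1 gene often differed in sign (4 of 7 genes with several after leucine removal, 3 of 9 cytosolic ones). No mitochondrial gene was 1.5-fold higher or lower after leucine removal. On the brightest probe set the values ran from VARS2, the mitochondrial valyl enzyme, at -0.34, to WARS2, the tryptophanyl one, at 0.37, whose other kept probe set was at -0.51. AARS2, the alanyl enzyme, was higher by 0.30 after leucine removal, on its other probe set by 0.62. PARS2 (0.28), MARS2 (0.26), SARS2 (0.25), IARS2 (0.15) and EARS2 (0.14) followed, and CARS2 (0.04), NARS2 (0.04), RARS2 (0.02) and LARS2 (0.01) were near 0. YARS2 (-0.16), FARS2 (-0.06) and HARS2 (-0.05) were below. All 15 brightest-probe-set values lie within the SD of 0.48 between probe sets. YARS2, the mitochondrial gene with a TGATGNAA match, was thus among the lower ones here, but after lysine removal it was at 0.18, below PARS2 alone.

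After lysine removal 2 mitochondrial genes were 1.5-fold lower (8.82% of all genes were) and 1 was 1.5-fold higher (13.5% of all genes). FARS2, the phenylalanyl enzyme, had signals of 730, 698 and 454 on the complete, leucine-deprived and lysine-deprived arrays, a difference of -0.68 after lysine removal, but its other kept probe set was 0.85 higher. SARS2, the seryl enzyme, had 572, 680 and 365 on its single probe set, a difference of -0.65. PARS2, the prolyl enzyme, had 248, 302 and 440, a difference of 0.82, also on 1 dim probe set. The lysine-deprived array was thus lowest for FARS2 and SARS2 and highest for PARS2. CARS2 (-0.58) and MARS2 (-0.55) were just short of 1.5-fold, VARS2 differed by -0.38, EARS2 by -0.28, NARS2 and RARS2 by -0.17, WARS2 by -0.14 and IARS2 by -0.03. LARS2, the mitochondrial leucyl enzyme, was level on its brighter probe set, with 1232, 1238 and 1258, but the other read 777, 754 and 387. HARS2 (0.08), AARS2 (0.17) and YARS2 (0.18) were above 0.

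Set side by side for the same amino acid, the cytosolic gene differed more in the upward direction than its mitochondrial counterpart in 14 of 15 pairs after leucine removal (median gap 0.45) and in 13 of 15 after lysine removal (median gap 0.54). FARS2 enters with both FARSA and FARSB, EPRS1 enters against EARS2 and against PARS2, and both counts use the same complete-medium array. The exceptions were FARSB after leucine removal (a gap of -0.04) and, after lysine removal, EPRS1 against PARS2 (-0.44) and HARS1 (-0.25). The widest gaps were those of YARS1 over YARS2 (0.96) and CARS1 over CARS2 (0.94) after leucine removal, and of CARS1 over CARS2 (1.52) and SARS1 over SARS2 (1.34) after lysine removal. All pairs use the brightest probe sets, also where other kept ones differ in sign, as in FARSA, FARS2 and CARS2. The other kept CARS2 probe sets, dim and each under the floor on a deprived array, differed by -0.99 and 0.55 after lysine removal. RARS1 and RARS2 stayed within 0.07 of each other on both arrays.

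**Figure D5:**
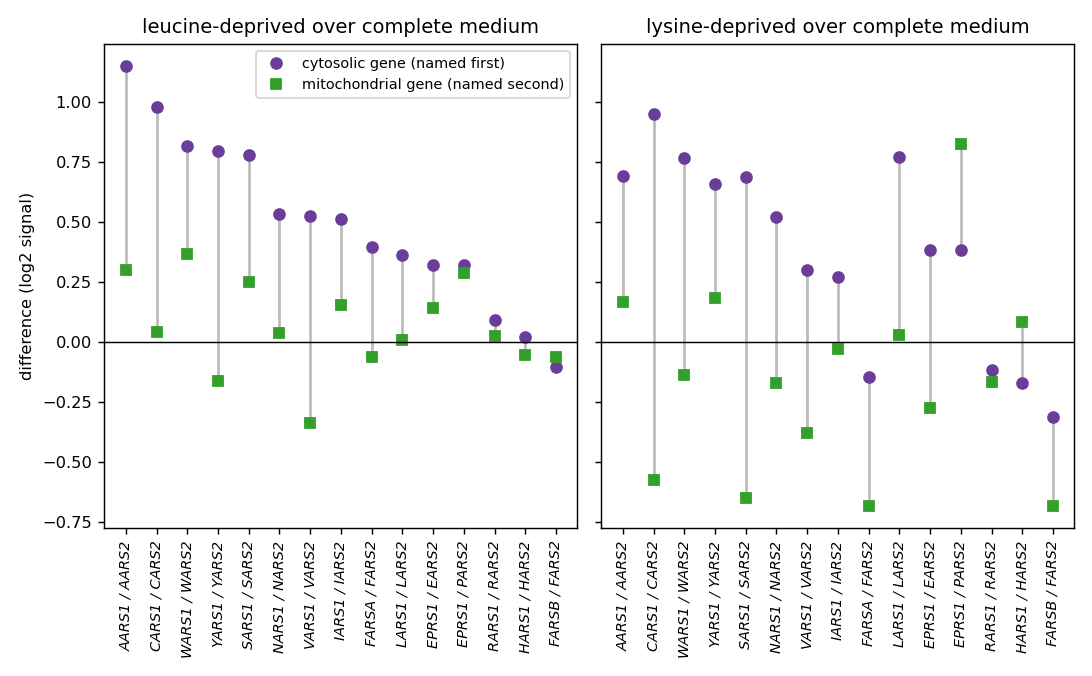
Difference from complete medium in log2 signal for cytosolic (circles) and mitochondrial (squares) synthetase genes of the same amino acid, joined by a line, in the order of the cytosolic difference after leucine removal; FARSA and FARSB are both set against FARS2, and EPRS1 against EARS2 and PARS2. The circle lies above the square in 14 of 15 pairs after leucine and 13 of 15 after lysine removal.

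HARS1 and HARS2 are neighbours on chromosome 5, transcribed away from each other, with 84 bases between their annotated starts. HARS1 had signals of 3454, 3504 and 3069 on the complete, leucine-deprived and lysine-deprived arrays and HARS2 1034, 996 and 1094. The widest of their differences from complete medium was -0.17, for HARS1 without lysine, so both genes were nearly level.

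Comparing the deprived arrays with each other leaves out the complete-medium array. Leucine-deprived over lysine-deprived, the cytosolic median was 0.14 with 14 of 17 above 0, and the mitochondrial median 0.19 with 11 of 15 above 0, beside a median of 0.01 and 51.8% above 0 over all genes. With arrays centred on their medians, the medians were 0.31 (16 of 17 above 0), 0.31 (12 of 15) and, over all genes, 0.13, and the split of all genes past 1.5-fold turned from 962 higher and 1165 lower to 1451 and 846. In the deposited scaling no cytosolic gene was 1.5-fold higher or lower; FARSA (0.54) and AARS1 (0.46) were highest and LARS1 (-0.41) lowest, but under that centring, on its other bright probe set, LARS1 was at 0.31, level with the cytosolic median. Of the mitochondrial genes 4 were 1.5-fold higher with leucine missing than with lysine missing (SARS2 by 0.90, MARS2 by 0.81, FARS2 by 0.62 and CARS2 by 0.62), where 7.83% of genes were and 9.49% were as much lower. Between kept probe sets of a mitochondrial gene the SD was 0.88 in this comparison over 7 genes, and FARS2 and CARS2 each had another kept probe set of opposite sign.

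Of 24 other genes of tRNA charging and delivery 17 had values, with a median of -0.08 after leucine and -0.02 after lysine removal, where the mean was 0.01. XPOT, the exporter of tRNA from the nucleus, had signals of 5970.4, 9257 and 10578 on the complete, leucine-deprived and lysine-deprived arrays and was the only one past 1.5-fold on both deprived arrays, higher by 0.63 and 0.83. SEPSECS, which completes selenocysteinyl-tRNA, was higher by 0.53 and 1.09 from a dim signal of 148. Of the 17, 1 was 1.5-fold higher after leucine and 2 after lysine removal, where 9.32% and 13.5% of all genes were. The counts of higher genes are thus not above the background. GATB and GATC, subunits of the mitochondrial enzyme that makes glutaminyl-tRNA, differed by -0.41 and -0.08 after leucine and were 1.5-fold lower after lysine removal (-0.79 and -0.61). They are 2 of the 17, where 8.82% of all genes were as much lower, so the count is near the background. QRSL1, their catalytic partner, differed by 0.19 and -0.09. EIF2AK4, the gene of GCN2, differed by -0.28 and 0.44, and its activator GCN1 by 0.00 and -0.01.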

How the data were processed

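The deposited intensity values, on a linear scale, are 1 signal per probe set and array (54675 probe sets, 62 of them controls). MAS5 is the tool the authors named, per the submitters' processing notes; no version or setting of it is stated there. The mean after trimming 2% at either end was 500.1 on each array, so the arrays had been scaled alike, which removes any change in total mRNA. Of the other 54613 probe sets, 41091 name 1 gene, 1801 several and 11721 are not named here. Symbols of all 33 members with probe sets matched the RefSeq table of GRCh38.p14 by Entrez identifier.

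Controls were left out, signals floored and taken to log2, and 12953 genes (23041 kept probe sets) were compared. With 1 array per group no test was run, and the number of arrays limits the precision. All members are named; those past 1.5-fold, LARS1, KARS1, HARS1 and HARS2 have their signals given. The members and lists were chosen with earlier results of these data known. Alternatives were other scalings (centring on the array median, quantile, cyclic loess), other floors (20th or 60th percentile, or an offset of 32 and no floor), other level filters (none, or the 70th percentile), averaging a gene's probe sets, dropping _x_at and _s_at probe sets, and lists without ATF4 targets or without GARS1 and KARS1. The code was tested on simulated data. Python 3.11.15, pandas 2.3.3, R 4.3.3 and limma 3.58.1 were used.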

Additional observations from a re-analysis of the deposited data

How the results depend on the processing

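Over 12 results and up to 12 alternatives each, 117 of 128 values stayed within 1 spread of the value reported (the SD between probe sets of a gene, divided by the square root of the number of genes for a median) or within 1.5 times a count. Floors at the 20th and 60th percentile and both level filters returned every reported value unchanged, so their part of the 117 adds no check. For a single gene the spread is wide. KARS1 after leucine removal counts as within it, though median centring took it from 0.0893 to -0.0417. Centring arrays on their medians moved the cytosolic medians to 0.38 (leucine-deprived over complete), 0.14 (lysine-deprived over complete) and 0.31 (leucine- over lysine-deprived), the mitochondrial medians over complete to -0.0895 and -0.41, and the count of cytosolic genes past 1.5-fold after lysine removal from 7 to 1. It also turned LARS1 after lysine removal from 0.77 to -0.0877, because another LARS1 probe set became the brightest and all values shifted down. Without the reported ATF4 targets, which leaves 5 genes, the cytosolic medians were 0.0893 and -0.15 and the counts past 1.5-fold 0 and 0 for leucine and lysine removal. Quantile and cyclic loess normalization, floors and level filters changed none of these calls. LARS1 has no value without _x_at and _s_at probe sets. No paired analysis was possible because each group has 1 array. Averaging probe sets brought LARS1 after lysine removal from 0.77 to 0.45 and the count past 1.5-fold there from 7 to 6. Of the mitochondrial genes 11 of 15 were at or above the median level of all genes, and of the cytosolic genes 17 of 17.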
